A study of Homo sapiens with 8 samples.

Results

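The genes described here encode core subunits of the Polycomb complexes and the enzymes that remove methyl groups from lysine 27 of histone H3. They are *EZH2*, *EZH1*, *EED* and *SUZ12* of Polycomb repressive complex 2 (PRC2), *RING1*, *RNF2* and *BMI1* of Polycomb repressive complex 1 (PRC1), and the demethylases *KDM6A* and *KDM6B*. They were chosen by name, as 9 of 20052 protein-coding genes, and not by their values, though with earlier results of these data known. Every H3K27ac peak in each gene and 20 kb either side was taken, which gave 35 of the 25045 peaks of MP2_HDAC1_OE and 26 of the 22569 peaks of MP2_NTC.

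The data are ChIP-sequencing of H3K27ac, acetylation of histone H3 at lysine 27, in lines of MIA PaCa-2, an epithelial cell line from a human pancreatic carcinoma. Both lines carry the same CRISPR activation system, from the lentiMPHv2 and lentiSAMv2 plasmids. MP2_HDAC1_OE has a guide RNA that activates *HDAC1*, a histone deacetylase, and MP2_NTC has a non-targeting guide RNA. Each line had 2 H3K27ac samples and 2 control samples without antibody, and the labels do not say whether the samples of a line were grown separately. For each line, 1 list of peaks that passed a test of reproducibility was deposited, pooled over both samples. There is thus no spread between replicates and no test between the lines. The lists hold no read counts, so the depth behind each peak is unknown, and the absence of a peak says only that none passed the reproducibility test.

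PRC2 adds methyl groups to lysine 27 of histone H3, with EZH2 or EZH1 as the enzyme and EED and SUZ12 as subunits it needs. PRC1 attaches ubiquitin to histone H2A through RING1 or RNF2, held by a PCGF protein such as BMI1, and KDM6A and KDM6B take methyl groups off lysine 27. The same lysine carries either a methyl or an acetyl group, and the acetyl form marks active promoters and enhancers. The PRC2 genes, *KDM6A* and *KDM6B* thus encode the writers and erasers of the modification that competes with the mark measured here.

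The signal is the deposited value of each peak, and no source used here says how it was scaled from list to list, so each peak was given a rank, the percent of peaks in its own list with a lower signal. Signals had a median of 46.5 and a maximum of 185 in MP2_HDAC1_OE and of 49.3 and 220 in MP2_NTC, and scores, which follow the reproducibility test, ran from 540 to 1000 in both. At *HDAC1*, the strongest start peak ranked at 93.9 in MP2_HDAC1_OE and 45.2 in MP2_NTC, a difference of 48.7 percentage points that exceeded that of 97.6% of genes with start peaks in both lists. Of the epithelial markers, *KRT18* and *KRT19* had start peaks in both lists, *KRT8* in MP2_HDAC1_OE only, and *KRT7*, *EPCAM* and *CDH1* in neither. *VIM*, a mesenchymal marker, had them in both. Of 9 markers of blood, endothelium, liver, islet, acinar cells and glia, 8 had none and *CDH5* had them in both. No start was listed for *KRT18*, *KRT19*, *KRT7*, *EPCAM*, *CDH1*, *CD3E*, *PECAM1*, *CDH5* or *GFAP*. Either gene end stood in for it there, so a peak counted for them may lie at the far end of the gene.

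The DNA around the starts is shown first for 5 genes, since they show the range of peak patterns. Each sequence is from RefSeq (GRCh38.p14) and runs 5′ to 3′ in the direction of the gene, with 250 bases before and 50 after the listed start. Capitals mark exact matches on either strand to the CCAAT box, the GC box GGGCGG, the cyclic AMP response element TGACGTCA, the E-box CACGTG, the ETS core CCGGAA or an E2F-type site, spelled TTTCCCGC, TTTCGCGC, TTTGCCGC or TTTGGCGC, and neighbouring matches can overlap. Of all 35116 promoters of the table, 34.6% held a CCAAT box, 45.0% a GC box, 1.85% the cyclic AMP response element, 7.26% the E-box, 17.2% the ETS core and 3.31% an E2F-type site. *EZH2* (chr7:148884242-148884541, minus strand) is shown because the strongest summits of the lines lay on different sides of its start. *EED* (chr11:86244503-86244802, plus strand) had a peak over all 300 bases in both lines. *RNF2* (chr1:185045308-185045607, plus strand) had a peak over all 300 bases in MP2_HDAC1_OE and none in MP2_NTC. *SUZ12* (chr17:31936757-31937056, plus strand) had no peak. *KDM6B* is shown at its first start (chr17:7833967-7834266, plus strand), which held no peak, and at its second (chr17:7839667-7839966), where a peak of MP2_HDAC1_OE held 118 bases and none of MP2_NTC reached.
EZH2: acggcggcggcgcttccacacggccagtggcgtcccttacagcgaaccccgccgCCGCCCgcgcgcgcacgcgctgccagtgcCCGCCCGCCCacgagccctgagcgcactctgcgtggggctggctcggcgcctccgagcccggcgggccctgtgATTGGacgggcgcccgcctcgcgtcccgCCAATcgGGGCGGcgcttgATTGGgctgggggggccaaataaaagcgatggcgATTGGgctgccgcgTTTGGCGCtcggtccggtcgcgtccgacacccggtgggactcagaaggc
EED: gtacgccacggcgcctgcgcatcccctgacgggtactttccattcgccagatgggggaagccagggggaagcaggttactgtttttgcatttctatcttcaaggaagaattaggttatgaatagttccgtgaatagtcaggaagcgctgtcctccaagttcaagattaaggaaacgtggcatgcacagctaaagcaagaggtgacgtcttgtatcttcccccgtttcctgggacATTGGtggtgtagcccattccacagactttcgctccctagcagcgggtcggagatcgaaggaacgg
RNF2: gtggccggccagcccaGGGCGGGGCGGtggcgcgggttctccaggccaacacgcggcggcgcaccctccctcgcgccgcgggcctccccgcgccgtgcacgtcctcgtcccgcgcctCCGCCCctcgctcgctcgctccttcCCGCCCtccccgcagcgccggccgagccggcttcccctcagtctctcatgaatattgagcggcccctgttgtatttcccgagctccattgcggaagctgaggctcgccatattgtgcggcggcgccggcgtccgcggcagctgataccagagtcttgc
SUZ12: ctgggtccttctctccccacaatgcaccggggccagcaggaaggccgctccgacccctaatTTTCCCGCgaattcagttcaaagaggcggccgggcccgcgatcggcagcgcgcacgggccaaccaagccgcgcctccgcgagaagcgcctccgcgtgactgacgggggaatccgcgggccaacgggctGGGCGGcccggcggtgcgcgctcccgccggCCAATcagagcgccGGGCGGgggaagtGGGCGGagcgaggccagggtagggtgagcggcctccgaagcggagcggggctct
KDM6B, first start: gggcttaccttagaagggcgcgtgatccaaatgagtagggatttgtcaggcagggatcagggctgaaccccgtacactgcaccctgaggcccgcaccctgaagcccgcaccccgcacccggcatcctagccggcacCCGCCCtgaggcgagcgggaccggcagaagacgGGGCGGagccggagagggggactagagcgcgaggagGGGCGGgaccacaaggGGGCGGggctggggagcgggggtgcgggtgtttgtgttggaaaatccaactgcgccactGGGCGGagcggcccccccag
KDM6B, second start: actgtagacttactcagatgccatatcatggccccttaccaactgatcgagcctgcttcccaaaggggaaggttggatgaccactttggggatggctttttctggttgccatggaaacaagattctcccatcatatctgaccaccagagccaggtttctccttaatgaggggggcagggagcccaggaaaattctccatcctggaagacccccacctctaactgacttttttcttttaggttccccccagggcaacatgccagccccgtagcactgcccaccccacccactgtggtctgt

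These starts differed in base composition. The *EZH2* sequence had 46 CG dinucleotides, more than 97.1% of all promoters, with 4 CCAAT boxes, 4 GC boxes and 1 E2F-type site. The *SUZ12* sequence had 40 CG dinucleotides, more than 92.4% of promoters, with 1 CCAAT box, 3 GC boxes and 1 E2F-type site, and the *RNF2* sequence had 41, with 4 GC boxes. The *EED* sequence was poorer in CG, with 16, near the median of 14.0 over all promoters, and held 1 CCAAT box. The CG-rich *SUZ12* sequence had a peak in neither line, though that absence is uncertain, as described below, and the CG-poorer *EED* sequence had peaks in both. A link between CG content and peaks was not tested. The second *KDM6B* start had 2 CG dinucleotides against 24 at the first. A match to a motif is a description of the letters and no evidence of binding.

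Acetylation around the Polycomb and demethylase genes was mostly at places listed in both lines when overlapping peaks were merged, and most of the remaining regions were of MP2_HDAC1_OE. When single peaks had to overlap by 50% of both, 17 MP2_HDAC1_OE peaks had a partner, and 18 MP2_HDAC1_OE and 10 MP2_NTC peaks had none. That count was not made over all peaks of the lists, so it has no background share. Peaks with at least 1 bp in common were joined across the lists into merged regions, which are shared if they hold peaks of both lines and unique if they hold peaks of 1 line. The windows of the 9 genes held 21 merged regions, of which 15 were shared (71.4%), 5 were unique to MP2_HDAC1_OE (23.8%) and 1 was unique to MP2_NTC (4.76%). Over all 18678 merged regions the shares were 50.7%, 28.6% and 20.7%. The 95% Wilson intervals were 10.6 to 45.1% for the share unique to MP2_HDAC1_OE and 0.846 to 22.7% for that unique to MP2_NTC, and they cover counting error only. The shares over all regions lay within both intervals, and the share unique to MP2_HDAC1_OE was near its background.

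By gene, 7 of 9 members had a shared region in their window, against 50.9% of all protein-coding genes. MP2_HDAC1_OE had a unique region at 4 of 9 members (*EZH1*, *BMI1*, *RNF2* and *KDM6B*), against 26.3% of all genes. MP2_NTC had one at 1 of 9 (*EZH2*), against 23.4%, and only *KDM6A* had no region, against 36.9% of all genes. The members' windows had a median of 84766 bp and those of all genes 64097 bp, and the part of window length in these counts was not tested. Of the 21 regions, 7 lay at a member's own start, 4 elsewhere in the gene and 10 outside it. The plot of regions by gene shows that *KDM6B* held 7 of them.

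**Figure D1:**
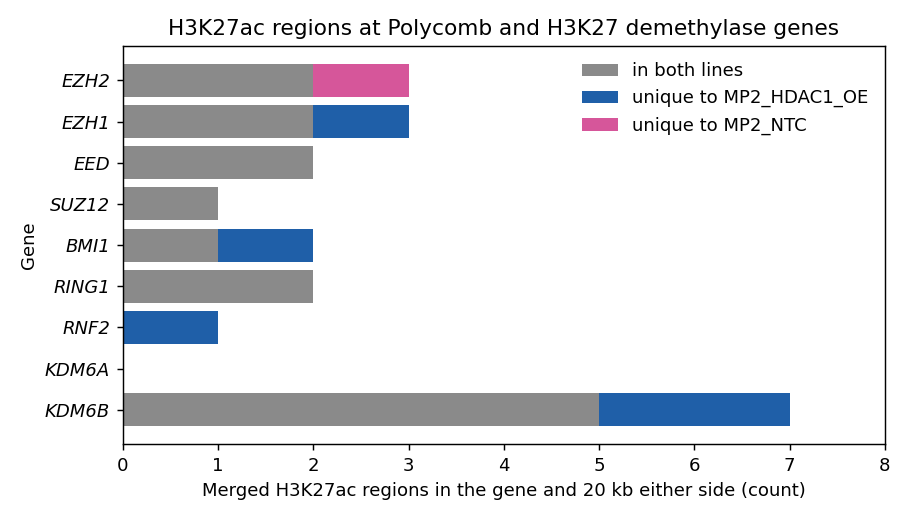
Number of merged H3K27ac regions (x axis) in each gene and 20 kb either side (y axis), as stacked bars for regions in both lines (grey), unique to MP2_HDAC1_OE (blue) and unique to MP2_NTC (pink). *KDM6B* had 7 regions, *KDM6A* had 0, and the 1 region unique to MP2_NTC was at *EZH2*.

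At the gene starts themselves, 4 of the 9 genes had a peak in both lists, 2 in MP2_HDAC1_OE only, 0 in MP2_NTC only and 3 in neither. A start peak here is one that reaches the window from 2 kb before to 1 kb after a listed start. For genes without a listed start, either gene end stood in for it. *EZH2*, *EZH1*, *EED* and *RING1* were those with a peak in both, where 36.9% of all protein-coding genes were found. *RNF2* and *KDM6B* had one in MP2_HDAC1_OE only, as did 6.37% of all genes, and 5.33% of all genes had one in MP2_NTC only. *SUZ12*, *BMI1* and *KDM6A* had none, as did 51.4% of all genes. Each of the 3 groups of roles thus held a gene without a start peak in either line. Where both lists had a start peak, the strongest ranked higher in MP2_HDAC1_OE at 3 of 4 members, against 54.4% of the 7401 such genes.

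**Figure D2:**
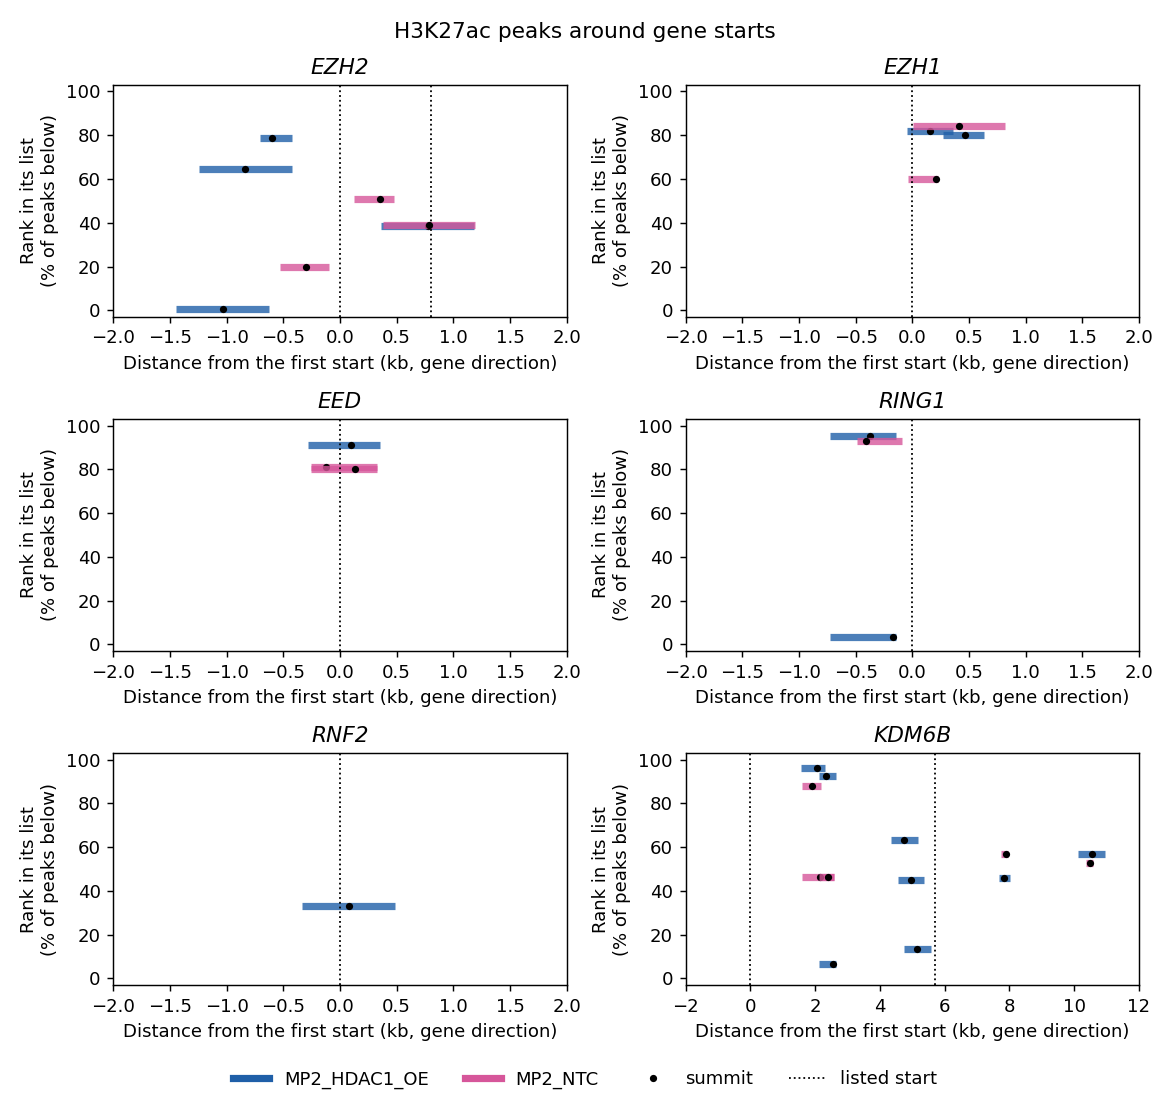
Peaks around the starts of 6 genes, with distance from the first listed start in kb along the gene (x axis) and the rank of the peak within its list, as the percent of peaks with a lower signal (y axis). Bars are intervals of MP2_HDAC1_OE (blue) and MP2_NTC (pink), dots are summits and dotted lines are listed starts. At *EZH2* the strongest summits lay 953 bp apart, and at *RNF2* only MP2_HDAC1_OE had a peak.

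*EZH2*, the main methyltransferase of PRC2 in dividing cells (chr7:148807383-148884291, minus strand), had the largest rank difference of the 4 members with start peaks in both lists. Its start peaks in MP2_HDAC1_OE had signals of 40.9, 54.8, 66.4 and 11.7, and in MP2_NTC 43.4, 49.9 and 31.3. The strongest ranked at 78.7 in MP2_HDAC1_OE and at 50.9 in MP2_NTC, a difference of 27.8 percentage points that exceeded that of 89.6% of genes. These strongest peaks were not in the same place. The summit of MP2_HDAC1_OE lay 597 bp before the first start and that of MP2_NTC 356 bp after it, in different merged regions.

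Read region by region, the ranks at *EZH2* differed in opposite directions on either side of the start. In the region before the start (chr7:148884383-148885734), the strongest peak ranked at 78.7 in MP2_HDAC1_OE and 20.0 in MP2_NTC, a difference of 58.7 percentage points. In the region after it (chr7:148883095-148884167), the ranks were 38.6 and 50.9, a difference of -12.3. The only interval over the 300 bases printed above was that of MP2_NTC, which held 159 of them, while the sequence of the second start, at 148883485, was held whole by a peak of each list. *EZH2* also had the only region unique to MP2_NTC, 38025 bp from the nearer gene end (chr7:148844998-148845817), with a signal of 41.9, a score of 590 and a rank of 36.2, against a median of 39.1 for all regions unique to MP2_NTC.

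*EZH1*, the paralog of *EZH2* that is used more in cells that do not divide (chr17:42700275-42745040, minus strand), differed little between the lines at its start. Both lists had 2 peaks there, with signals of 68.1 and 70.2 in MP2_HDAC1_OE and of 79.3 and 55.4 in MP2_NTC. The strongest ranked at 82.0 and 84.3, a difference of -2.37 percentage points, and 37.5% of genes had a lower one. With the signals at the start summed, the difference turned to 5.25. All 4 peaks lay in 1 shared region (chr17:42744219-42745084), and *EZH1* ranked above *EZH2* in both lists. At the other end of its window, a region unique to MP2_HDAC1_OE (chr17:42682199-42683361) lay at *CNTNAP1*, with a rank of 57.9, and a shared region near *CCR10* (chr17:42678484-42680431) reached the window with 1 of its MP2_HDAC1_OE peaks.

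*EED*, the subunit that binds methylated lysine 27 (chr11:86244753-86287615, plus strand), had a start peak of the highest score, 1000, in both lines. MP2_HDAC1_OE had 1 peak (chr11:86244468-86245105) with a signal of 84.9, and MP2_NTC had 2 summits in 1 interval (chr11:86244498-86245078) with signals of 75.1 and 73.6. The strongest ranked at 91.2 and 81.3, a difference of 9.85 percentage points, above that of 69.7% of genes. When the signals at the start were summed instead, the difference was -31.9, since MP2_NTC listed 2 summits and MP2_HDAC1_OE listed 1. The direction at *EED* thus depended on how summits within an interval were counted. The other region of its window lay at *HIKESHI*, with ranks of 89.0 and 89.1.

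*SUZ12*, the subunit that holds PRC2 together (chr17:31937007-32001038, plus strand), was the only PRC2 gene without a start peak. The nearest peak to its start was 35.0 kb away in MP2_HDAC1_OE and 70.0 kb away in MP2_NTC. The 1 region of its window (chr17:32007036-32008315) lay at the start of *LRRC37B*, where the strongest peak ranked at 75.2 in MP2_HDAC1_OE, 25.3 percentage points above that of MP2_NTC. A partial copy, *SUZ12P1* (chr17:30709608-30792830), had 1 peak in or near it in each list, with ranks of 50.7 in MP2_HDAC1_OE and 0.128 in MP2_NTC, at different places. How reads that match both copies were treated is not given in the sources used here, so the missing peak at *SUZ12* is uncertain.

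Of the PRC1 enzymes, *RING1* (chr6:33208500-33212716, plus strand) had the highest ranks of all start peaks of the 9 genes. Its strongest peak had a signal of 96.0 in MP2_HDAC1_OE and 98.3 in MP2_NTC, with a score of 1000 in both. The ranks were 95.2 and 93.1, a difference of 2.09 percentage points, which exceeded that of 53.0% of genes. The summits lay 37 bp apart, 372 and 409 bp before the start. The interval of MP2_HDAC1_OE (chr6:33207778-33208360) also held the hairpin of microRNA 219a-1 (chr6:33207835-33207944), while that of MP2_NTC began after it, at 33208015. A second region at *RXRB* and *SLC39A7* was shared too, with ranks of 86.4 and 90.6.

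*RNF2*, the other ubiquitin ligase of PRC1 (chr1:185045558-185102603, plus strand), contrasted with *RING1*. Its only peak was at its start in MP2_HDAC1_OE (chr1:185045225-185046044), with a signal of 38.3, a score of 652 and a rank of 33.2. The nearest MP2_NTC peak was 111 kb from the start. The peak ranked below the median of regions unique to MP2_HDAC1_OE, 41.6, and was higher than 36.9% of them, while shared regions had a median of 74.6 in the same list. The part of peak strength in whether it was listed in 1 line was not tested.

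*BMI1*, a PCGF subunit of PRC1 (chr10:22321099-22331706, plus strand), had no peak at either of its listed starts or elsewhere in the gene. Its window held a region unique to MP2_HDAC1_OE (chr10:22316116-22316935) at the start of *COMMD3*, with a signal of 44.0, a score of 721 and a rank of 45.2. This start is also that of a readthrough transcript, *COMMD3-BMI1*. A shared region on the other side (chr10:22340309-22341394), nearest to *SPAG6*, ranked at 70.0 in MP2_HDAC1_OE and 39.4 in MP2_NTC. Of the regions near *BMI1*, MP2_NTC thus lacked the first and ranked the second lower.

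The demethylases stood at opposite ends of the range of peak counts. *KDM6A*, which also belongs to the complexes of KMT2C and KMT2D at enhancers (chrX:44873188-45112779, plus strand), had no peak in its 279592 bp window in either list. The nearest peak to its start was 570 kb away in MP2_HDAC1_OE and 631 kb away in MP2_NTC. Within 5 Mb of the gene there were 107 regions, of which 65 were shared, 24 were unique to MP2_HDAC1_OE and 18 to MP2_NTC. Of the 1086 protein-coding genes with a window at least as long, 55.0% had no region.

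*KDM6B*, a demethylase that is induced by many signals (chr17:7834217-7854796, plus strand), had 13 peaks of MP2_HDAC1_OE and 7 of MP2_NTC in its window. These peaks covered 5832 bp and 2660 bp and included some past the end of the gene, nearest to *TMEM88*, *NAA38* and *CYB5D1*. The covered length depends on the called width of peaks as well as on their number. The strongest peaks of *KDM6B* were shared and lay about 2 kb after the first start (chr17:7835796-7836848), with ranks of 96.1 and 88.2. No interval reached the window of the first start. At the second start, MP2_HDAC1_OE alone had peaks (chr17:7838564-7839784), with signals of 54.1, 44.0 and 23.2. The strongest ranked at 63.5, higher than 79.3% of the regions unique to MP2_HDAC1_OE. With a window of 5 kb either side of each start, *KDM6B* counted as having a start peak in both lists, with a rank difference of 7.93 percentage points, and *BMI1* as having one in MP2_HDAC1_OE only, the peak at *COMMD3*.

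Further into *KDM6B*, 2 regions were shared and had middle ranks. The first (chr17:7841905-7842226) ranked at 45.9 in MP2_HDAC1_OE and 57.0 in MP2_NTC, and the second (chr17:7844344-7845163) at 57.0 and 52.6. Past its end, a region unique to MP2_HDAC1_OE (chr17:7855878-7857203) at the facing ends of *TMEM88* and *NAA38* ranked at 56.3, with 4 bp between it and the next region, which was shared. The 2 shared regions nearest to *CYB5D1* went opposite ways, with ranks of 27.6 and 73.8 in one (chr17:7857208-7857636) and of 92.5 and 16.6 in the other (chr17:7857655-7858572). Only 18 bp lay between the latter regions.

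Set beside all genes, the rank differences of *EZH1*, *EED* and *RING1* were ordinary and that of *EZH2* was toward the upper end. The median over the 4 members was 5.97 percentage points, and over the 7401 genes with start peaks in both lists it was 1.07, with quartiles of -9.29 and 13.1. The difference of *EZH2* lay above the upper quartile and those of the other members between the quartiles. In the 5 Mb around each gene, shared regions had a median difference of 0.320 at *EZH2*, 3.34 at *EZH1*, -6.05 at *EED* (8 regions) and 3.03 at *RING1*. By these values *EZH2* and *EED* were above their neighbourhood and *EZH1* and *RING1* below it, while all shared regions had a median of 1.51. The measures are unlike, as a gene's value takes the strongest peak anywhere at its start and a region's value compares peaks within it. Taken by region, *EZH2* had 58.7 and -12.3 at its start, and with summed signals *EED* had -31.9. Against its whole chromosome, with a median of 0.634, *RING1* was above and not below.

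**Figure D3:**
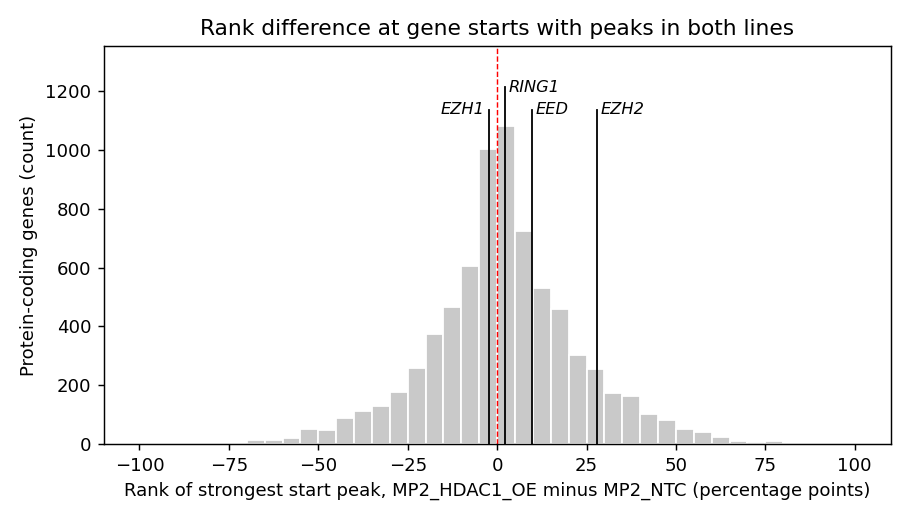
Histogram of the difference in rank of the strongest start peak, MP2_HDAC1_OE minus MP2_NTC in percentage points (x axis), as the number of protein-coding genes (y axis) among the 7401 with start peaks in both lists. Black lines mark *EZH1* (-2.37), *RING1* (2.09), *EED* (9.85) and *EZH2* (27.8), and the dashed red line marks 0. With summed signals *EZH1* and *EED* changed sign, to 5.25 and -31.9.

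Other genes of the Polycomb pathway and of the KDM6A complex were read from a list of 36 genes by role. The 5 genes of the KDM6A complex all had start peaks in both lists and count toward the share below. Start peaks were in both lists at 26 (72.2%), in MP2_HDAC1_OE only at 3, in MP2_NTC only at 3 and in neither at 4. Of all protein-coding genes, 36.9% had them in both, 6.37% in MP2_HDAC1_OE only, 5.33% in MP2_NTC only and 51.4% in neither. Those in MP2_HDAC1_OE only were *RYBP*, *BCORL1* and *BAP1*, with ranks of 51.9, 34.3 and 54.9. Those in MP2_NTC only were *EPOP*, *PHC2* and *SCML2*, with ranks of 44.3, 64.3 and 74.8. *PCGF5*, *CBX2*, *CBX7* and *YAF2*, all of PRC1, had none.

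Of the 26 genes with both, 14 ranked higher in MP2_HDAC1_OE and 12 in MP2_NTC. Among all genes with both, 54.4% ranked higher in MP2_HDAC1_OE. The median difference of the 26 was 1.16 percentage points, close to the 1.07 of all genes. Among PRC2 partners 2 were higher in MP2_HDAC1_OE and 5 in MP2_NTC, and among PRC1 partners 8 and 4. The median was -6.66 for the 7 PRC2 partners with both and 7.86 for the 12 PRC1 partners with both. The medians of the other roles lay between these values. Both values lay between the quartiles of all genes, -9.29 and 13.1, and the quartile ranges of the PRC2 and PRC1 partners overlapped. A difference between these roles was not tested. *PHF1*, a PRC2 subunit that binds methylated lysine 36, had the largest difference toward MP2_HDAC1_OE, with ranks of 88.3 and 25.9. *KMT2D*, the methyltransferase that works with KDM6A, followed with 99.0 and 67.7, and the PRC1 gene *SCMH1* with 86.9 and 58.3. The largest differences toward MP2_NTC were at *L3MBTL2*, with 54.8 and 86.1, *PCGF3*, with 63.7 and 90.9, and *RBBP7*, with 70.9 and 93.1.

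**Figure D4:**
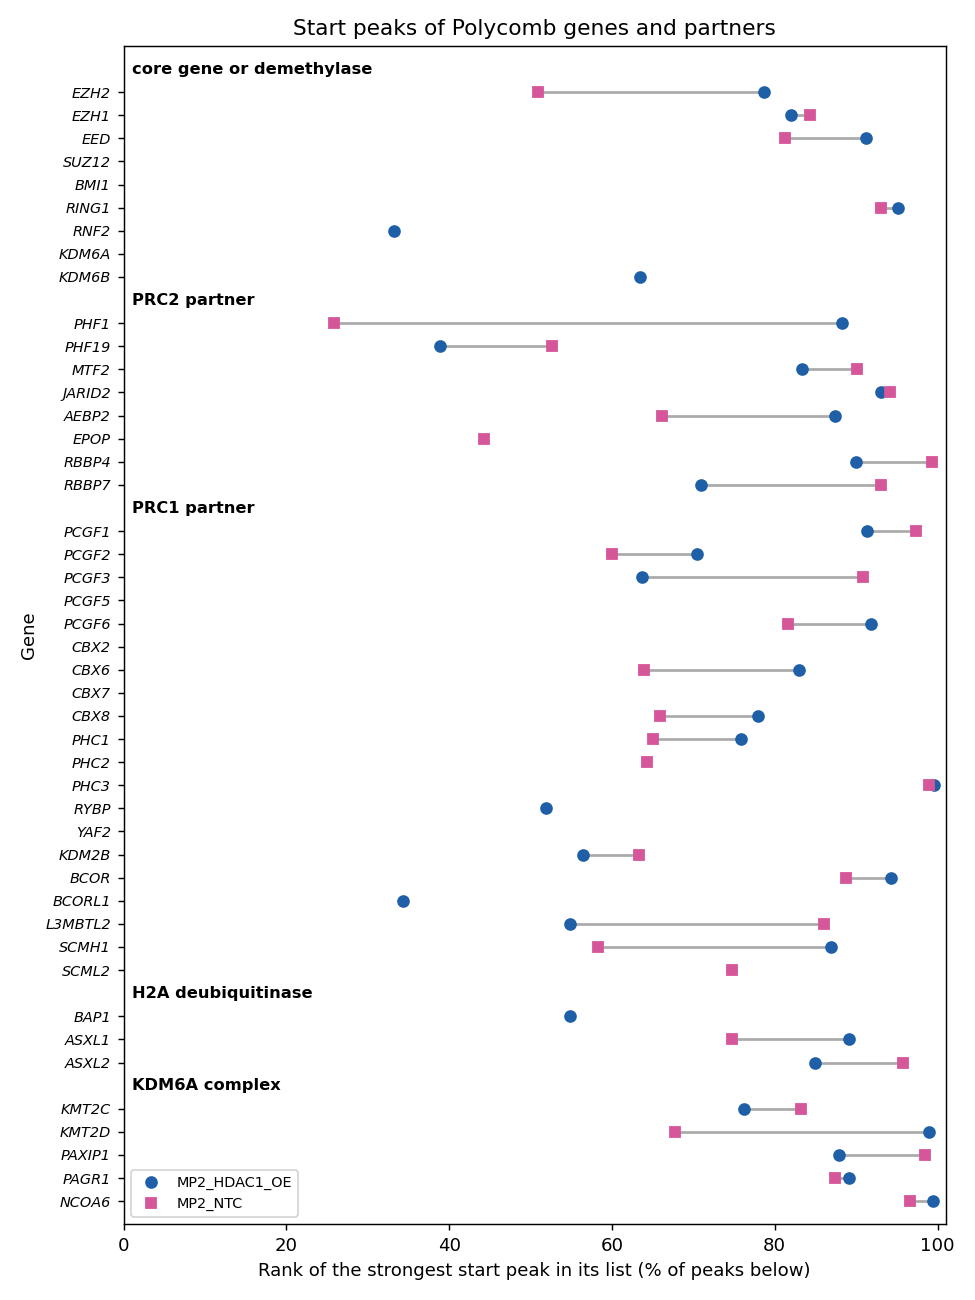
Rank of the strongest start peak within its list, as the percent of peaks with a lower signal (x axis), for the 9 genes and the 36 further genes by role (y axis), in MP2_HDAC1_OE (blue circles) and MP2_NTC (pink squares). Grey lines join genes with a start peak in both lists, a lone symbol means a start peak in 1 list, and an empty line means none. The longest grey line is that of *PHF1*, with ranks of 88.3 and 25.9.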

How the data were processed

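H3K27ac was measured by ChIP-sequencing in MP2_HDAC1_OE and MP2_NTC, with 75 bp reads. The authors ran the ENCODE pipeline and deposited the optimal peaks of their reproducibility test (IDR), 1 list per line, and the submitters' processing notes name BWA 0.7.12, Picard 1.88 and hg38. The peak caller and the handling of reads that map to several places are not given in the sources used here. The deposited signal of each peak was used as a rank within its list, and the deposited score was used as a filter in an alternative.

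Gene positions and promoter sequences came from RefSeq (GRCh38.p14). A start was taken from the promoter table for 15841 genes. Either gene end stood in for it at 4211, among them *EPOP*, *CBX2*, *CBX8*, *BAP1*, *PAXIP1*, *NCOA6* and several cell type markers. No test was run, as each list pools its samples. One further gene of the wider list is not reported here. The members and lists were chosen with earlier results of these data known. Named genes were all members, *HDAC1*, the gene ending nearest to each peak outside a member's start and, of the wider list, those without a start peak in 1 or both lists and the 3 largest differences either way. Merging and counting were tested on simulated data. Alternatives covered the overlap, the peaks kept, the windows and the measure of rank. The scripts ran under Python 3.11.15 on pandas 2.3.3 and numpy 2.4.6, with intervals from scipy 1.17.1 and plots from matplotlib 3.10.9.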

Additional observations from a re-analysis of the deposited data

How the results depend on the processing

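No paired analysis was possible because the samples of a line were merged into 1 list of peaks, which also means that none of them could be left out. The 4, 2 and 0 members with a start peak in both lists, in MP2_HDAC1_OE only and in MP2_NTC only, the 3 ranked higher in MP2_HDAC1_OE, the 2 above their neighbourhood and the 26, 3 and 3 genes of the wider list stayed within 1.5 times under every alternative run, including the wider list with listed starts only, which was chosen after seeing the data. Start peaks were not counted with only peaks of score 1000. No start peak of *RNF2* or *KDM6B* had that score, and none of *EZH2* in MP2_NTC had it. The genes in these groups would thus change under that filter. With 5 kb either side of a start the members themselves differed, as *KDM6B* had a start peak in both lists and *BMI1* joined *RNF2* in MP2_HDAC1_OE only. With summed signals *EZH1* took the place of *EED* among the 3 ranked higher in MP2_HDAC1_OE. Against the whole chromosome 3 members were above the median of shared regions. The comparison with the neighbourhood was not rerun with summed signals. Counts of peaks and regions moved with the window. The gene alone gave 13 and 12 peaks in MP2_HDAC1_OE and MP2_NTC, with 6 shared regions and 2 unique to MP2_HDAC1_OE. With 5 kb either side MP2_NTC had 16 peaks, and with 50 kb it had 41, with 8 regions unique to MP2_HDAC1_OE and 4 to MP2_NTC. Peaks with a score of 1000 numbered 16 and 8, in 7 shared regions and 0 unique to MP2_NTC. The 75% of peaks with the highest signal gave 8 regions unique to MP2_HDAC1_OE. Counted as single peaks, an overlap of 1 bp gave 24 shared, 11 unique to MP2_HDAC1_OE and 3 to MP2_NTC. An overlap of 50% of both peaks gave 17, 18 and 10, so that shared peaks were no longer the majority at these genes. Single peaks were not counted in this way over the whole lists, so neither result has a background share. The 50% rule also depends on peak width, as 56.4% of MP2_HDAC1_OE and 61.7% of MP2_NTC peaks were 820 bp wide. A much narrower peak inside such a peak counts as having no partner. The rank difference of *EZH2* ran from 23.6 to 37.1 and stayed above 0 in every alternative. With summed signals the difference of *EED* reversed to -31.9 and that of *EZH1* to 5.25, as this measure adds every summit listed at a start. Apart from the construction of the alternatives, the cause was not tested.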
